A study of Mus musculus with 9 samples.

Results

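The genes described here encode the ephrins and semaphorins, which are guidance cues, and their receptors, the Eph receptors, plexins and neuropilins. They were taken from the count table by name, as rows matching the ephrin, Eph, semaphorin or plexin gene symbols together with Nrp1 and Nrp2, and kept where the 9 libraries together held at least 10 counts. Of 54 matching rows 50 were kept, out of 24421 genes in the table. Epha3, Epha5 and Epha6 had 5, 4 and 2 counts in all and Plxna4os1, an antisense entry, had 0. The 50 members were 8 ephrin, 11 Eph receptor, 20 semaphorin, 9 plexin and 2 neuropilin genes.

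RNA was sequenced from the mouse embryonic stem (ES) cell line D3, kept feeder-free on gelatin in serum with ESGRO, a leukemia inhibitory factor product, in 3 groups of 3 libraries. The LAMP2A+DM-αKG libraries came from cells overexpressing LAMP2A that received DM-αKG at 4 mM for 72 h, the LAMP2A libraries from cells overexpressing LAMP2A without DM-αKG, and the VT libraries from cells stably carrying the pCDH control vector. LAMP2A is the form of the lysosomal membrane protein LAMP2 used in chaperone-mediated autophagy, and DM-αKG is a cell-permeable dimethyl ester of α-ketoglutarate. The labels say neither whether a group was a clone or a pool of cells nor whether its libraries were separate cultures, so p-values measure the spread between these libraries, which may be technical. Untreated VT cells were the only vector control, and no group of VT cells with DM-αKG was among the samples. The labels do not state whether cells without DM-αKG received a vehicle.

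Ephrins and Eph receptors both sit in the cell membrane and signal between touching cells, in both directions, which sorts cells and steers axons and vessels. Ephrin-A ligands are held by a lipid anchor and mostly bind EphA receptors, while ephrin-B ligands span the membrane and mostly bind EphB receptors. Semaphorins are secreted (class 3) or membrane-bound cues that signal through plexins, which act on small GTPases of the Rap and R-Ras kind, and class 3 semaphorins mostly use the neuropilins as co-receptors.

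Promoter windows are shown for the 3 members with the highest and the 2 with the lowest fold changes of LAMP2A against VT. Each runs from 250 bases before to 50 bases after the gene start of RefSeq, build GRCm38.p6, and is printed 5′ to 3′ on the strand of the gene. Capitals mark matches, on either strand, to 4 motifs. These are the TATA box, spelled TATAAA, and the CCAAT box, spelled CCAAT. The others are the GC box, spelled GGGCGG, and an E-box, spelled CACGTG.
Sema3c, chr5:17574566-17574865, plus strand: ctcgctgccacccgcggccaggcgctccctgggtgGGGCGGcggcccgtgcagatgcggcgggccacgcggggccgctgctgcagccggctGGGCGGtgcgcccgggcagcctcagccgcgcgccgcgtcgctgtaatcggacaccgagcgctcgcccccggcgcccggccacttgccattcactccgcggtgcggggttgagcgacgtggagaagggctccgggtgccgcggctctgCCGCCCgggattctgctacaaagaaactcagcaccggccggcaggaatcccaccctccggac
Sema3d, chr5:12382916-12383215, plus strand: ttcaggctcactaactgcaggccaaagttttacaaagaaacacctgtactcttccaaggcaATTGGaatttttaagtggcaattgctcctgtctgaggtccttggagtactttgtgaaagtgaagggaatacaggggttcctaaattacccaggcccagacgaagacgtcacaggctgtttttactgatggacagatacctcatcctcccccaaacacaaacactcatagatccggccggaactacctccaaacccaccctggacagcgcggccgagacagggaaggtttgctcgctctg
Nrp1, chr8:128358823-128359122, plus strand: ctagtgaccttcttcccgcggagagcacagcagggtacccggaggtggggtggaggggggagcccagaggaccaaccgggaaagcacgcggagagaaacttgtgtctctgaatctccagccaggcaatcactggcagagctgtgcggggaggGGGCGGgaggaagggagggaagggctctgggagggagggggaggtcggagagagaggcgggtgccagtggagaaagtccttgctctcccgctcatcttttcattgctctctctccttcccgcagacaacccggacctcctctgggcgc
Sema4a, chr3:88461133-88461432, minus strand: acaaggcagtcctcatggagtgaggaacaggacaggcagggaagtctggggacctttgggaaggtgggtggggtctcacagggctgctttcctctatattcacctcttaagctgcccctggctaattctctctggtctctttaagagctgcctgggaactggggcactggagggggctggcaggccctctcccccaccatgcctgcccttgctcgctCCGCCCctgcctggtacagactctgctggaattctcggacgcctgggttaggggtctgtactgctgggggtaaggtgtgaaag
Sema5b, chr16:35541112-35541411, plus strand: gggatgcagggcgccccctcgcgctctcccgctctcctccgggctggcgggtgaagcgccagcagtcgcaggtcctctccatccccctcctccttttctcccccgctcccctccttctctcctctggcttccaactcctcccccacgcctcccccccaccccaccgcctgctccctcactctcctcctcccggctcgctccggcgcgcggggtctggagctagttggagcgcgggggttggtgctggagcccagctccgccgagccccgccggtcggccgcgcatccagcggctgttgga
Against the gene starts of GENCODE M21, the RefSeq starts of Sema3c, Nrp1 and Sema5b lie 535, 469 and 217 bases inside the gene, that of Sema3d lies 219 bases before it and that of Sema4a is the same. The Sema3c and Nrp1 windows thus lie wholly within the gene as GENCODE annotates it. The Sema3c window held 3 GC boxes and the Nrp1 and Sema4a windows 1 each, the Sema3d window held 1 CCAAT box, and no marked motif was in the Sema5b window. RefSeq windows were at hand for 42 of the tested members and for 10852 tested genes. GGGCGG occurred in 33 of the 42 member windows (78.6%), against 65.3% of all windows. CCAAT occurred in 15 (35.7%, against 38.4% of all), CACGTG in 3 (7.14%, against 10.1%) and TATAAA in 1 (2.38%, against 6.94%). Searched without marking, GGAATG, a TEAD motif, was in 5 (11.9%, against 12.3%) and TGANTCA, an AP-1 motif, in 1 (2.38%, against 4.52%). In the printed windows no marked match overlapped another. The median GC content was 65.3% in the member windows and 61.3% in all. No window was at hand for Efnb3, Plxna1, Plxna4, Sema3b, Sema3f and Sema6a.

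Library totals ran from 23636074 to 32809875 counts, and libraries of a group correlated at 0.994 to 0.997. Lamp2 averaged 97.2 ± 2.00 CPM in LAMP2A+DM-αKG, 404 ± 2.24 CPM in LAMP2A and 58.2 ± 1.64 CPM in VT (SD, n = 3 each). CPM values here are counts scaled by library size, with TMM factors. Counts per gene do not separate the introduced copy of Lamp2 from the endogenous gene. The ES cell markers fixed for the check were all counted in every group. Their summed level was 6171 to 6195 CPM in LAMP2A+DM-αKG, 1862 to 1868 CPM in LAMP2A and 7438 to 7773 CPM in VT. Of these markers 9 of 9 fell in LAMP2A against VT, where 42.1% of all genes fell.

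In LAMP2A libraries most guidance genes were higher than in VT libraries, several of them by more than 10-fold, and in LAMP2A+DM-αKG most were lower than in LAMP2A. All 8 ephrins and both neuropilins rose in LAMP2A, as did Sema3b, Sema3e and Sema3f, the 3 class 3 semaphorins that passed the low-count filter without the LAMP2A libraries. The members that fell were mainly class 4 semaphorins and the class 5 semaphorin Sema5b. A gene passed at an adjusted p under 0.05, by edgeR's quasi-likelihood test with Benjamini-Hochberg adjustment over 14513 genes. Of 48 members tested, 35 rose and 8 fell in LAMP2A against VT, where 43% of all genes rose, 42.1% fell and 85.1% thus passed. At a fold change of at least 2, 25 rose and 3 fell, against 19.8% and 9.61% of all genes (29.4% in either direction). The median log2 fold change was 1.19 over the 48 members and 0.01 over all genes tested.

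With DM-αKG, 11 members rose and 35 fell relative to LAMP2A, where 41.1% of all genes rose, 42.1% fell and 83.2% passed. At least 2-fold, 4 members rose and 23 fell, against 8.06% and 17.6% of all genes (25.7% in either direction), and the median log2 fold change was -0.97 over the members and -0.0012 over all genes. In LAMP2A+DM-αKG against VT 24 members rose, 5 fell and 19 did not pass, where 29.3% of all genes rose, 29.3% fell and 58.7% passed. At 2-fold or more Plxnd1 and Epha7 rose and no member fell, against 3.93% of all genes higher and 2.63% lower (6.55% in either direction), and 40 of the 48 members (83.3%) differed by less than 1.5-fold, against 81.9% of all genes. Lamp2 itself fell 4.16-fold in LAMP2A+DM-αKG against LAMP2A (log2 -2.06, SE 0.031) and was 1.67-fold higher in LAMP2A+DM-αKG than in VT (log2 0.74, SE 0.035). In this design DM-αKG and the lower Lamp2 level cannot be told apart. The comparisons share libraries and are not independent of one another.

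Sema3g and Plxnb3, with 44 and 10 counts in all, were too low to test. Epha8, Ephb1, Sema3a, Sema3c, Sema3d and Sema6d reached the low-count filter only through the LAMP2A libraries and so had to be higher there. Without these 6, 29 of 42 members rose and 8 fell in LAMP2A against VT, with a median log2 fold change of 0.85. Of all genes 43% rose and 42.1% fell. At 2-fold or more 19 of the 42 rose and 3 fell, against 19.8% and 9.61% of all genes. In LAMP2A+DM-αKG against LAMP2A the count without them was 11 higher and 29 lower of 42, with a median of -0.72. Of all genes 41.1% rose and 42.1% fell there. Of the 42, 4 rose and 17 fell at 2-fold or more, against 8.06% and 17.6% of all genes. Genes that passed the filter only through the LAMP2A libraries were not taken out of the shares of all genes, here or below.

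**Figure D1:**
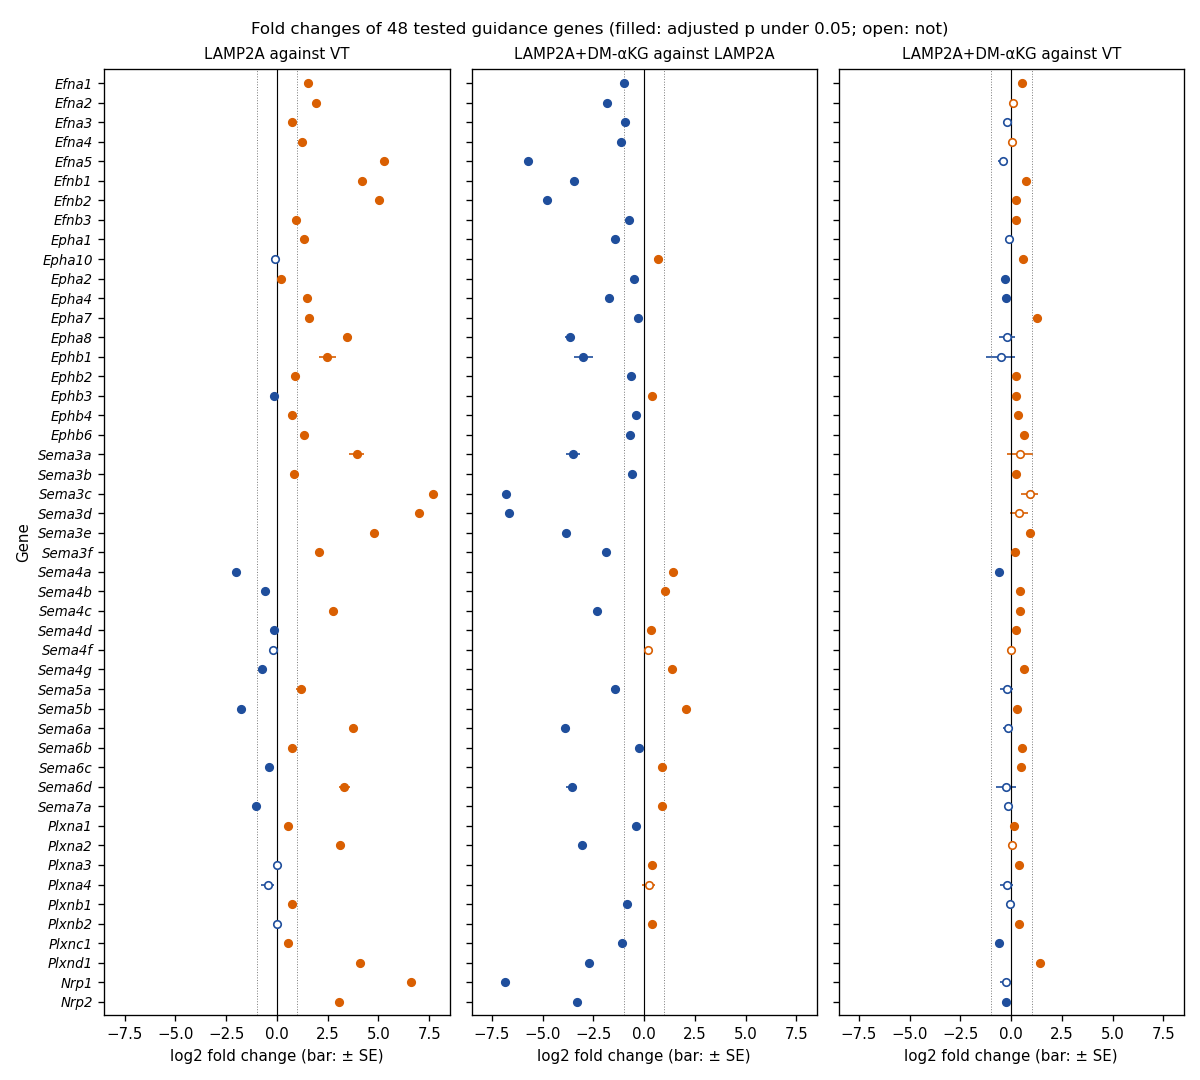
Log2 fold change of each of 48 tested members in the 3 comparisons, with bars of ± SE. Filled points passed at an adjusted p under 0.05, open points did not, and dotted lines mark 2-fold. In LAMP2A against VT 35 filled points lie right of 0, where 43% of all genes rose. In LAMP2A+DM-αKG against LAMP2A 35 filled points lie left of 0, where 42.1% of all genes fell. Epha8, Ephb1, Sema3a, Sema3c, Sema3d and Sema6d were testable only through their LAMP2A level. In LAMP2A+DM-αKG against VT 40 of the 48 members lie within 1.5-fold, against 81.9% of all genes.

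The 3 ephrin-B ligands and the 5 ephrin-A ligands all rose in LAMP2A against VT and fell with DM-αKG. Of all genes 43% rose in the first comparison and 42.1% fell in LAMP2A+DM-αKG against LAMP2A. The ephrin-B genes summed to 19.4 to 20.2 CPM in LAMP2A+DM-αKG, 216 to 219 CPM in LAMP2A and 14.9 to 15.1 CPM in VT, and the ephrin-A genes to 27.5 to 28.4 CPM in LAMP2A+DM-αKG, 93.3 to 98.0 CPM in LAMP2A and 26.8 to 29.0 CPM in VT. The LAMP2A sums were the highest in both classes. Efnb2, the ligand of EphB4 that marks arteries (mm10 chromosome 8, 8617434 to 8661242, minus strand), had 4.88, 4.70 and 4.66 CPM in LAMP2A+DM-αKG, 130.5, 129 and 131 CPM in LAMP2A and 3.74, 3.88 and 4.35 CPM in VT. Every LAMP2A library lay far above the other 6. Its fold change was 32.6 in LAMP2A against VT (log2 5.03, SE 0.055) and it fell 27.5-fold in LAMP2A+DM-αKG against LAMP2A (log2 -4.78, SE 0.053). Efnb1, the X-linked gene of craniofrontonasal syndrome in humans (chromosome X, 99136130 to 99148991, plus strand), had 6.90, 6.78 and 6.49 CPM in LAMP2A+DM-αKG, 72.4, 74.7 and 73.5 CPM in LAMP2A and 3.91, 4.03 and 4.05 CPM in VT. The 3 groups did not overlap, and LAMP2A+DM-αKG lay just above VT. Efnb1 rose 18.4-fold in LAMP2A against VT (log2 4.20, SE 0.060), and in LAMP2A+DM-αKG it fell 11.0-fold against LAMP2A (log2 -3.45, SE 0.054) and was 1.68-fold higher than in VT (log2 0.74, SE 0.094). Efnb3, an ephrin-B of the nervous system's midline, had 8.41, 7.93 and 8.25 CPM in LAMP2A+DM-αKG, 13.0, 13.9 and 14.3 CPM in LAMP2A and 7.41, 7.03 and 6.73 CPM in VT. The groups stood apart by less than in the other ephrin-B genes, with a 1.94-fold rise in LAMP2A against VT (log2 0.96, SE 0.073) and a 1.67-fold fall with DM-αKG (log2 -0.74, SE 0.070).

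Among the ephrin-A ligands Efna5 changed most. Efna5 (chromosome 17, 62604184 to 62881317, minus strand), known for topographic mapping of retinal axons, had 0.589, 0.732 and 0.466 CPM in LAMP2A+DM-αKG, 29.3, 32.0 and 31.0 CPM in LAMP2A and 0.823, 0.776 and 0.744 CPM in VT. It was low outside the LAMP2A libraries, with 47 counts in the LAMP2A+DM-αKG libraries together and 61 in VT. The fold change was 39.2 in LAMP2A against VT (log2 5.29, SE 0.102), and Efna5 fell 51.8-fold in LAMP2A+DM-αKG against LAMP2A (log2 -5.70, SE 0.108). Efna2 had 4.80, 4.54 and 4.36 CPM in LAMP2A+DM-αKG, 15.4, 16.7 and 16.8 CPM in LAMP2A and 3.83, 4.40 and 4.69 CPM in VT. Efna4 (chromosome 3, 89333390 to 89338028, minus strand) had 14.5, 14.6 and 15.8 CPM in LAMP2A+DM-αKG, 33.2, 33.8 and 33.8 CPM in LAMP2A and 13.9, 15.8 and 13.8 CPM in VT. For Efna2 and Efna4 the LAMP2A+DM-αKG and VT libraries overlapped, while all LAMP2A libraries were higher. Efna2 rose 3.76-fold in LAMP2A against VT (log2 1.91, SE 0.081) and fell 3.57-fold with DM-αKG (log2 -1.84, SE 0.080). Efna4 rose 2.32-fold (log2 1.21, SE 0.055) and fell 2.24-fold (log2 -1.16, SE 0.055). Efna1, a ligand of EphA2, and Efna3 rose 2.91-fold and 1.66-fold in LAMP2A and fell 2.00-fold and 1.93-fold with DM-αKG. Efna1, Efna3 and Efna4 lie next to each other on chromosome 3 with gaps of 32.8 and 10.4 kb.

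Summed over the 8 ephrin genes, the level was 46.9 to 48.4 CPM in LAMP2A+DM-αKG, 309 to 317 CPM in LAMP2A and 41.9 to 43.9 CPM in VT. Per kb of exon, which allows genes to be compared, the order of the ephrins differed between groups. Efna4 was highest in LAMP2A+DM-αKG at 9.35 ± 0.459 CPM per kb and in VT at 9.05 ± 0.694 CPM per kb (SD, n = 3). In LAMP2A the levels of Efnb1, at 21.3 ± 0.337 CPM per kb, and Efna4, at 21.0 ± 0.192 CPM per kb, differed by less than their spread, and Efnb2 followed at 19.0 ± 0.145 CPM per kb. Efna5 reached 7.63 ± 0.330 CPM per kb in LAMP2A, next to Efna2 at 7.65 ± 0.385 CPM per kb, a difference within their spread. In these bulk libraries fewer cells of a type and less RNA per cell cannot be told apart.

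**Figure D2:**
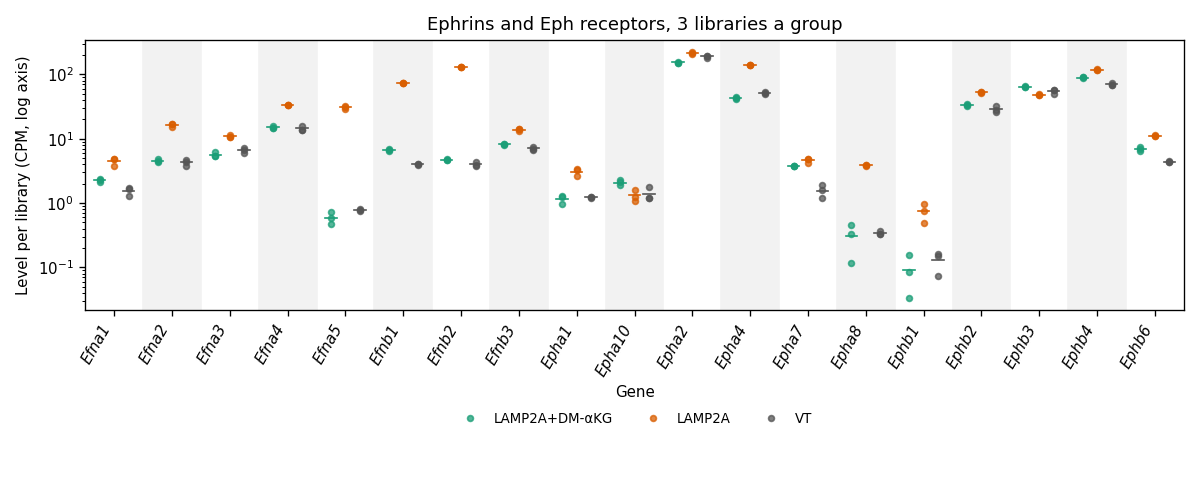
Level per library (CPM, log axis) of the ephrin and Eph receptor genes tested. Points are libraries and bars are means of 3 libraries. For Efna5, Efnb1 and Efnb2 the LAMP2A points lie at 29.3 CPM or above and the other libraries at 6.90 CPM or below, whereas for Epha2 and Ephb3 the 3 groups lie close together.

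Eph receptors had higher summed levels than the ephrins in every group. Per kb of exon, the 11 Eph receptors summed to 71.8 to 73.9 CPM per kb in LAMP2A+DM-αKG, 105 to 106 CPM per kb in LAMP2A and 71.7 to 77.2 CPM per kb in VT. The 8 ephrins summed to 20.0 to 20.7 CPM per kb in LAMP2A+DM-αKG, 86.3 to 89.0 CPM per kb in LAMP2A and 18.3 to 19.5 CPM per kb in VT. Of 11 Eph receptors tested, 9 rose and Ephb3 fell in LAMP2A against VT, and 6 rose at least 2-fold. Without Epha8 and Ephb1, which passed the low-count filter only through the LAMP2A libraries, 7 of 9 rose, 4 of them at least 2-fold. Of all genes 43% rose and 42.1% fell in LAMP2A against VT, and 19.8% rose at least 2-fold. Epha2, a receptor of ephrin-A1 (chromosome 4, 141301240 to 141329384, plus strand), had 158, 151 and 153 CPM in LAMP2A+DM-αKG, 211, 214 and 219 CPM in LAMP2A and 196, 192 and 182 CPM in VT. The groups did not overlap, and LAMP2A+DM-αKG was the lowest. Epha2 rose 1.13-fold in LAMP2A against VT (log2 0.17, SE 0.031), and in LAMP2A+DM-αKG it was 1.39-fold lower than in LAMP2A (log2 -0.48, SE 0.032) and 1.23-fold lower than in VT (log2 -0.30, SE 0.032). Per kb of exon it was the highest of all 50 members in each group, at 32.9 ± 0.777 CPM per kb in LAMP2A+DM-αKG, 45.9 ± 0.889 CPM per kb in LAMP2A and 40.6 ± 1.52 CPM per kb in VT.

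Epha4, which binds ligands of the A and B type (chromosome 1, 77367185 to 77515088, minus strand), had 43.3, 43.8 and 41.8 CPM in LAMP2A+DM-αKG, 141, 142 and 140.1 CPM in LAMP2A and 52.6, 48.9 and 51.5 CPM in VT. LAMP2A libraries stood far above the others and LAMP2A+DM-αKG just below VT. Epha4 rose 2.76-fold in LAMP2A against VT (log2 1.46, SE 0.035) and in LAMP2A+DM-αKG fell 3.28-fold against LAMP2A (log2 -1.71, SE 0.036) and 1.19-fold against VT (log2 -0.25, SE 0.040). Epha1, Epha7, Epha8 and Ephb1 stayed under 5 CPM in every group. Epha8 averaged 0.304 ± 0.175 CPM in LAMP2A+DM-αKG, 3.87 ± 0.0689 CPM in LAMP2A and 0.345 ± 0.0237 CPM in VT (SD, n = 3), an 11.1-fold rise in LAMP2A against VT. Epha1 rose 2.52-fold and Epha7 2.94-fold in LAMP2A against VT. Ephb1, with 7 counts in LAMP2A+DM-αKG, 67 in LAMP2A and 10 in VT, rose 5.55-fold in LAMP2A against VT. With DM-αKG it fell 7.96-fold against LAMP2A, and 12.2-fold without LAMP2A+DM-αKG replicate 2. Epha10, which has an inactive kinase domain, averaged 2.08 ± 0.193 CPM in LAMP2A+DM-αKG, 1.31 ± 0.263 CPM in LAMP2A and 1.41 ± 0.350 CPM in VT (SD, n = 3). It did not pass in LAMP2A against VT and was 1.60-fold higher in LAMP2A+DM-αKG than in LAMP2A.

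Epha7 stayed above VT under DM-αKG. It had 3.83, 3.74 and 3.83 CPM in LAMP2A+DM-αKG, 4.80, 4.85 and 4.15 CPM in LAMP2A and 1.19, 1.59 and 1.90 CPM in VT. The LAMP2A+DM-αKG libraries lay above all VT libraries and just below those of LAMP2A. The 2.41-fold excess in LAMP2A+DM-αKG over VT passed (log2 1.27, SE 0.150). The fall against LAMP2A, 1.22-fold (log2 -0.28, edgeR adjusted p = 0.020), was lost without LAMP2A replicate 1 (edgeR adjusted p = 0.069), without LAMP2A replicate 2 (edgeR adjusted p = 0.0763), without LAMP2A+DM-αKG replicate 2 (edgeR adjusted p = 0.0551) and with DESeq2 (adjusted p = 0.0989).

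Of the 5 EphB receptors 4 rose and 1 fell in LAMP2A against VT, and 3 of 4 rose without Ephb1, where 43% of all genes rose and 42.1% fell. Ephb4, the receptor of ephrin-B2 in veins (chromosome 5, 137350109 to 137378669, plus strand), had 90.0, 87.6 and 89.9 CPM in LAMP2A+DM-αKG, 118, 120.3 and 117 CPM in LAMP2A and 72.9, 69.5 and 68.2 CPM in VT. Ephb2 had 33.9, 32.4 and 35.2 CPM in LAMP2A+DM-αKG, 51.0, 53.8 and 52.7 CPM in LAMP2A and 31.7, 26.4 and 28.2 CPM in VT. In Ephb2 and Ephb4 the 3 groups were apart, with LAMP2A+DM-αKG between LAMP2A and VT. Ephb4 rose 1.69-fold in LAMP2A against VT (log2 0.75, SE 0.034) and Ephb2 1.83-fold (log2 0.87, SE 0.050). With DM-αKG Ephb4 fell 1.33-fold and Ephb2 1.55-fold against LAMP2A.

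Ephb6, a receptor without kinase activity, had 6.35, 7.36 and 6.82 CPM in LAMP2A+DM-αKG, 11.2, 11.3 and 10.9 CPM in LAMP2A and 4.36, 4.44 and 4.31 CPM in VT. Again LAMP2A+DM-αKG was intermediate. Ephb6 rose 2.54-fold in LAMP2A against VT (log2 1.35, SE 0.084), and in LAMP2A+DM-αKG it was 1.62-fold lower than in LAMP2A and 1.57-fold higher than in VT (log2 0.65, SE 0.095). Ephb3 was the Eph receptor gene that fell in LAMP2A. It had 65.1, 63.7 and 62.8 CPM in LAMP2A+DM-αKG, 48.1, 48.2 and 49.4 CPM in LAMP2A and 57.7, 56.3 and 50.1 CPM in VT. The lowest VT library lay just above the highest LAMP2A library, with a 1.13-fold fall in LAMP2A against VT (log2 -0.17, SE 0.043) and a 1.31-fold rise with DM-αKG against LAMP2A (log2 0.39, SE 0.042).

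The class 3 semaphorins are secreted. Sema3b, Sema3e and Sema3f, which passed the low-count filter without the LAMP2A libraries, all rose in LAMP2A against VT and fell in LAMP2A+DM-αKG against LAMP2A, where 43% and 42.1% of all genes did so. Sema3a, Sema3c and Sema3d, which passed it only through the LAMP2A libraries, moved in the same directions and had to be higher there. Sema3c, a cue of the cardiac outflow tract (chromosome 5, 17574281 to 17730268, plus strand), had 0.463, 0.424 and 0.233 CPM in LAMP2A+DM-αKG, 42.4, 39.5 and 41.0 CPM in LAMP2A and 0.123, 0.185 and 0.260 CPM in VT. It was barely counted outside LAMP2A, with 29 counts in the LAMP2A+DM-αKG libraries and 15 in VT, and the LAMP2A+DM-αKG and VT libraries overlapped. Its fold change in LAMP2A against VT, 209-fold (log2 7.71, SE 0.127), was the highest of the 48 members, and it fell 111-fold in LAMP2A+DM-αKG against LAMP2A (log2 -6.80, SE 0.113). Sema3d (chromosome 5, 12383385 to 12588948, plus strand) had 0.210, 0.270 and 0.399 CPM in LAMP2A+DM-αKG, 29.9, 29.7 and 31.8 CPM in LAMP2A and 0.123, 0.259 and 0.298 CPM in VT. The pattern was that of Sema3c, with 24 counts in LAMP2A+DM-αKG and 18 in VT. Sema3d rose 129.7-fold in LAMP2A against VT (log2 7.02, SE 0.132) and fell 99.7-fold with DM-αKG (log2 -6.64, SE 0.125). Sema3e, which binds plexin D1 without a neuropilin (chromosome 5, 14025276 to 14256689, plus strand), had 2.65, 3.39 and 2.79 CPM in LAMP2A+DM-αKG, 41.1, 43.4 and 42.4 CPM in LAMP2A and 1.56, 1.55 and 1.56 CPM in VT. The groups did not overlap, and LAMP2A+DM-αKG lay nearer VT. Sema3e rose 27.1-fold in LAMP2A against VT (log2 4.76, SE 0.083), and in LAMP2A+DM-αKG it fell 14.3-fold against LAMP2A (log2 -3.84, SE 0.072) and was 1.89-fold higher than in VT (log2 0.92, SE 0.151).

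Sema3f, a ligand of neuropilin-2, averaged 7.79 ± 0.299 CPM in LAMP2A+DM-αKG, 28.2 ± 0.654 CPM in LAMP2A and 6.78 ± 0.767 CPM in VT (SD, n = 3 each), a 4.17-fold rise in LAMP2A against VT. Sema3b, its neighbour on chromosome 9 at 72.3 kb, rose 1.78-fold in LAMP2A and fell 1.51-fold with DM-αKG. Sema3a, the ligand of neuropilin-1 that makes growth cones collapse, averaged 0.138 ± 0.0807 CPM in LAMP2A+DM-αKG, 1.62 ± 0.137 CPM in LAMP2A and 0.100 ± 0.0759 CPM in VT. Its rise in LAMP2A against VT was 15.1-fold, from 8 counts in VT, and 25.7-fold without VT replicate 3. Sema3g had 5 counts in the LAMP2A+DM-αKG libraries, 28 in LAMP2A and 11 in VT. Sema3d, Sema3a and Sema3e follow each other on chromosome 5 with gaps of 536 and 423 kb, and Sema3c lies on the same chromosome. Summed over class 3, the level was 26.7 to 28.0 CPM in LAMP2A+DM-αKG, 166 to 170 CPM in LAMP2A and 20.9 to 24.4 CPM in VT.

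**Figure D3:**
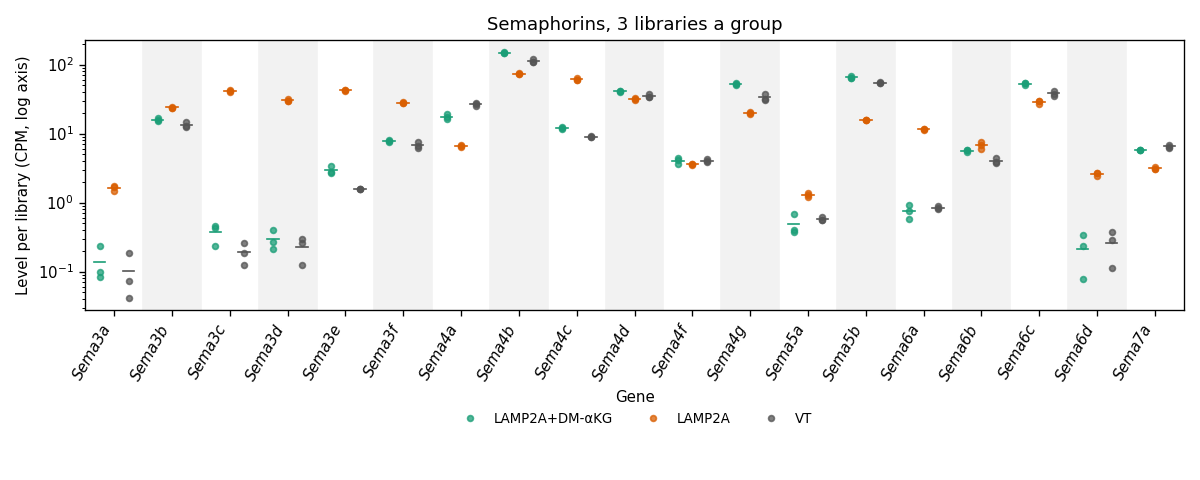
Level per library (CPM, log axis) of the 19 semaphorin genes tested. Points are libraries and bars are means of 3 libraries. In the 6 class 3 genes shown, 3 of which were testable only through their LAMP2A level, the LAMP2A points lie above the other groups, and in Sema4a, Sema4b, Sema4g, Sema5b, Sema6c and Sema7a they lie below them.

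Class 4 semaphorins, which span the membrane, mostly fell in LAMP2A. Of 6 tested, 4 fell, Sema4f did not pass and Sema4c rose in LAMP2A against VT, where 42.1% of all genes fell and 43% rose. At 2-fold or more only Sema4a fell and only Sema4c rose, against 9.61% and 19.8% of all genes. Sema4c, a ligand of plexin-B2 (chromosome 1, 36548639 to 36558349, minus strand), had 11.7, 12.2 and 12.4 CPM in LAMP2A+DM-αKG, 60.6, 59.2 and 63.6 CPM in LAMP2A and 8.80, 9.35 and 8.78 CPM in VT. The LAMP2A libraries were far above the others, and LAMP2A+DM-αKG was just above VT. Sema4c rose 6.79-fold in LAMP2A against VT (log2 2.76, SE 0.054) and in LAMP2A+DM-αKG fell 5.04-fold against LAMP2A (log2 -2.33, SE 0.051). Sema4a, known from the retina and from immune cells (chromosome 3, 88435959 to 88461182, minus strand), had 19.5, 16.1 and 17.2 CPM in LAMP2A+DM-αKG, 6.45, 6.80 and 6.65 CPM in LAMP2A and 28.1, 26.5 and 25.3 CPM in VT. Here LAMP2A was lowest, VT highest and LAMP2A+DM-αKG between them without overlap. Sema4a fell 4.01-fold in LAMP2A against VT (log2 -2.00, SE 0.070), the lowest fold change of the 48 members, and in LAMP2A+DM-αKG rose 2.65-fold against LAMP2A (log2 1.40, SE 0.076) and stayed 1.51-fold below VT (log2 -0.60, SE 0.060).

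Sema4g had 54.2, 52.1 and 50.9 CPM in LAMP2A+DM-αKG, 19.2, 20.2 and 20.6 CPM in LAMP2A and 37.6, 31.1 and 32.2 CPM in VT. LAMP2A+DM-αKG was above both other groups. It fell 1.68-fold in LAMP2A against VT (log2 -0.75, SE 0.058), and in LAMP2A+DM-αKG it was 2.62-fold higher than in LAMP2A (log2 1.39, SE 0.054) and 1.56-fold higher than in VT (log2 0.64, SE 0.051). Sema4b (chromosome 7, 80186841 to 80226527, plus strand) was the semaphorin with the highest level per kb in LAMP2A+DM-αKG at 26.3 ± 0.239 CPM per kb and in VT at 19.8 ± 1.15 CPM per kb, while in LAMP2A it had 13.0 ± 0.311 CPM per kb, within the spread of Sema4c at 13.3 ± 0.483 CPM per kb (SD, n = 3). It fell 1.53-fold in LAMP2A against VT and rose 2.03-fold in LAMP2A+DM-αKG against LAMP2A. Sema4d, the ligand of plexin-B1, had 41.6, 40.8 and 40.0 CPM in LAMP2A+DM-αKG, 31.9, 32.6 and 30.9 CPM in LAMP2A and 37.1, 34.3 and 33.7 CPM in VT. The groups were close but apart, with a 1.10-fold fall in LAMP2A against VT (log2 -0.13, edgeR adjusted p = 0.0081) that was lost without VT replicate 1 (edgeR adjusted p = 0.068). Sema4f averaged 4.06 ± 0.426 CPM in LAMP2A+DM-αKG, 3.57 ± 0.109 CPM in LAMP2A and 4.06 ± 0.246 CPM in VT. It passed in none of the 3 comparisons, and its edgeR adjusted p of 0.11 in LAMP2A+DM-αKG against LAMP2A became 0.0479 without LAMP2A+DM-αKG replicate 1.

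Sema5b, a membrane semaphorin with thrombospondin repeats (chromosome 16, 35541145 to 35664732, plus strand), had 64.5, 63.3 and 68.3 CPM in LAMP2A+DM-αKG, 15.7, 15.8 and 15.6 CPM in LAMP2A and 56.2, 53.9 and 53.3 CPM in VT. LAMP2A was lowest and LAMP2A+DM-αKG highest. Sema5b fell 3.46-fold in LAMP2A against VT (log2 -1.79, SE 0.048), and in LAMP2A+DM-αKG it was 4.16-fold higher than in LAMP2A (log2 2.06, SE 0.047) and 1.20-fold higher than in VT (log2 0.27, SE 0.039). The other class 5 gene, Sema5a, moved the opposite way at a low level, 0.490 ± 0.176 CPM in LAMP2A+DM-αKG, 1.31 ± 0.0935 CPM in LAMP2A and 0.577 ± 0.0352 CPM in VT, a 2.26-fold rise in LAMP2A against VT.

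Class 6 semaphorins are membrane ligands of A-type plexins. Sema6a had 0.757, 0.578 and 0.931 CPM in LAMP2A+DM-αKG, 11.4, 11.7 and 11.5 CPM in LAMP2A and 0.823, 0.813 and 0.893 CPM in VT. Only the LAMP2A libraries were above 1 CPM. Sema6a rose 13.6-fold in LAMP2A against VT (log2 3.77, SE 0.124) and fell 15.0-fold with DM-αKG (log2 -3.91, SE 0.126). Sema6d, at 17 counts in LAMP2A+DM-αKG, 238 in LAMP2A and 20 in VT, rose 9.97-fold in LAMP2A. Sema6b had 5.43, 5.82 and 5.79 CPM in LAMP2A+DM-αKG, 7.51, 5.90 and 6.76 CPM in LAMP2A and 4.40, 3.88 and 3.72 CPM in VT. It rose 1.69-fold in LAMP2A against VT (log2 0.75, SE 0.104). The lowest LAMP2A library lay just above the highest LAMP2A+DM-αKG library, and the 1.18-fold fall between these groups (edgeR adjusted p = 0.020) was lost without LAMP2A replicate 1 (edgeR adjusted p = 0.195), without LAMP2A+DM-αKG replicate 1 (edgeR adjusted p = 0.0698) and with DESeq2 (adjusted p = 0.0773).

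Sema6c went against the other class 6 genes, with 54.8, 50.7 and 53.8 CPM in LAMP2A+DM-αKG, 29.7, 29.8 and 27.1 CPM in LAMP2A and 42.1, 37.2 and 35.6 CPM in VT. The LAMP2A+DM-αKG libraries were the highest and those of LAMP2A the lowest. Sema6c fell 1.32-fold in LAMP2A against VT (log2 -0.40, SE 0.054), and in LAMP2A+DM-αKG it was 1.83-fold higher than in LAMP2A and 1.39-fold higher than in VT. Sema7a, a lipid-anchored semaphorin that binds plexin C1 and integrins, had 5.76, 5.85 and 5.75 CPM in LAMP2A+DM-αKG, 3.31, 3.11 and 3.02 CPM in LAMP2A and 6.87, 6.21 and 6.47 CPM in VT. LAMP2A was again lowest, with a 2.06-fold fall against VT (log2 -1.04, SE 0.100) and a 1.83-fold rise in LAMP2A+DM-αKG against LAMP2A (log2 0.87, SE 0.102).

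Summed over all 20 semaphorin genes, LAMP2A+DM-αKG had 429 to 439 CPM, LAMP2A 432 to 438 CPM and VT 334 to 371 CPM. The LAMP2A+DM-αKG and LAMP2A sums overlapped although single classes differed. Class 4 summed to 272 to 280.3 CPM in LAMP2A+DM-αKG, 194 to 201 CPM in LAMP2A and 211 to 235 CPM in VT.

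Plexins are the receptors of semaphorins. Of 8 tested, 5 rose and 3 did not pass in LAMP2A against VT. That is 62.5% passed, below the 85.1% of all genes, of which 43% rose. At 2-fold or more 25% of the plexins passed, against 29.4% of all genes. Plxnd1, the receptor of Sema3e (chromosome 6, 115954811 to 115995005, minus strand), had 3.58, 2.93 and 3.26 CPM in LAMP2A+DM-αKG, 21.1, 20.6 and 21.4 CPM in LAMP2A and 1.69, 0.776 and 1.26 CPM in VT. The 3 groups were apart, in the same order as for its ligand Sema3e. Plxnd1 rose 17.1-fold in LAMP2A against VT (log2 4.09, SE 0.112), and in LAMP2A+DM-αKG it fell 6.47-fold against LAMP2A (log2 -2.69, SE 0.089) and was 2.64-fold higher than in VT (log2 1.40, SE 0.174). Plxna2, a receptor of class 3 and class 6 semaphorins (chromosome 1, 194618218 to 194816869, plus strand), had 11.6, 12.4 and 11.2 CPM in LAMP2A+DM-αKG, 97.2, 98.0 and 98.6 CPM in LAMP2A and 12.0, 11.1 and 11.3 CPM in VT. LAMP2A+DM-αKG and VT overlapped. Plxna2 rose 8.56-fold in LAMP2A against VT (log2 3.10, SE 0.047) and fell 8.37-fold in LAMP2A+DM-αKG against LAMP2A (log2 -3.07, SE 0.047).

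Plxna1 (chromosome 6, 89316314 to 89362620, minus strand) had 240.1, 239 and 244 CPM in LAMP2A+DM-αKG, 314, 313 and 318 CPM in LAMP2A and 238, 195 and 223 CPM in VT. The VT libraries were the most spread and the lowest. Plxna1 rose 1.44-fold in LAMP2A against VT (log2 0.53, SE 0.050) and fell 1.31-fold with DM-αKG (log2 -0.39, SE 0.050). Plxnb1, the receptor of Sema4d, had 36.4, 33.9 and 35.1 CPM in LAMP2A+DM-αKG, 60.7, 63.5 and 63.5 CPM in LAMP2A and 41.0, 33.9 and 36.9 CPM in VT. Only LAMP2A stood apart, with a 1.68-fold rise against VT (log2 0.75, SE 0.047) and a 1.78-fold fall with DM-αKG (log2 -0.83, SE 0.048). Plxnc1, the receptor of Sema7a, averaged 1.25 ± 0.156 CPM in LAMP2A+DM-αKG, 2.73 ± 0.203 CPM in LAMP2A and 1.90 ± 0.243 CPM in VT (SD, n = 3), a 1.44-fold rise in LAMP2A against VT.

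Plxna3, Plxna4 and Plxnb2 did not pass in LAMP2A against VT. Plxnb2, the receptor of Sema4c (chromosome 15, 89155549 to 89180788, minus strand), had 240.3, 244 and 244 CPM in LAMP2A+DM-αKG, 189, 187 and 186 CPM in LAMP2A and 201, 180.2 and 185 CPM in VT. Plxna3, an A-type plexin used by Sema3f, had 29.7, 29.0 and 30.4 CPM in LAMP2A+DM-αKG, 22.4, 23.8 and 22.9 CPM in LAMP2A and 25.4, 21.4 and 22.6 CPM in VT. In both genes LAMP2A and VT overlapped and LAMP2A+DM-αKG was above them. The log2 difference of LAMP2A from VT was -0.01 (SE 0.033) for Plxnb2 and -0.00070 (SE 0.056) for Plxna3, and LAMP2A+DM-αKG against LAMP2A was 1.30-fold and 1.29-fold higher. Plxna4 averaged 0.530 ± 0.170 CPM in LAMP2A+DM-αKG, 0.452 ± 0.0685 CPM in LAMP2A and 0.621 ± 0.238 CPM in VT and passed in no comparison. Plxnb3 had 3 counts in the LAMP2A+DM-αKG libraries, 2 in LAMP2A and 5 in VT.

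**Figure D4:**
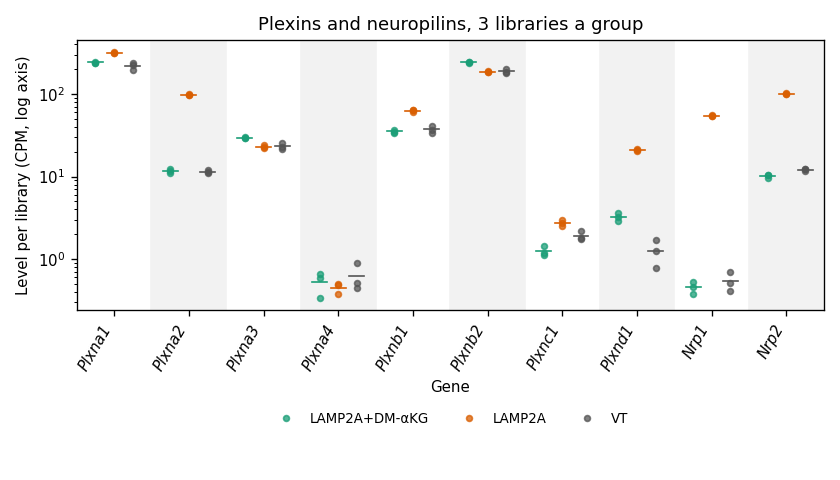
Level per library (CPM, log axis) of the plexin and neuropilin genes tested. Points are libraries and bars are means of 3 libraries. For Nrp1, Nrp2, Plxna2 and Plxnd1 the LAMP2A points lie at 20.6 CPM or above and all others at 12.4 CPM or below, while the groups of Plxna3, Plxna4 and Plxnb2 lie close together.

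The neuropilins, co-receptors of class 3 semaphorins and of vascular endothelial growth factors, both rose in LAMP2A against VT, where 43% of all genes rose. Nrp1 (chromosome 8, 128358604 to 128503363, plus strand) had 0.379, 0.462 and 0.532 CPM in LAMP2A+DM-αKG, 54.6, 53.5 and 56.0 CPM in LAMP2A and 0.411, 0.518 and 0.707 CPM in VT. LAMP2A+DM-αKG and VT overlapped at a level near 0.5 CPM, with 37 counts in the LAMP2A+DM-αKG libraries and 43 in VT. Nrp1 rose 98.7-fold in LAMP2A against VT (log2 6.62, SE 0.096) and fell 117-fold in LAMP2A+DM-αKG against LAMP2A (log2 -6.87, SE 0.099). Nrp2 (chromosome 1, 62703285 to 62818695, plus strand) had 10.4, 9.67 and 10.4 CPM in LAMP2A+DM-αKG, 102, 100.3 and 99.8 CPM in LAMP2A and 12.2, 12.4 and 11.6 CPM in VT. LAMP2A+DM-αKG was lowest without overlap. Nrp2 rose 8.35-fold in LAMP2A against VT (log2 3.06, SE 0.046), and in LAMP2A+DM-αKG it fell 9.93-fold against LAMP2A (log2 -3.31, SE 0.047) and 1.19-fold against VT (log2 -0.25, SE 0.067). Per kb, the neuropilin with the higher level was Nrp2 in all groups, at 8.51 ± 0.109 CPM per kb in LAMP2A against 5.59 ± 0.125 CPM per kb for Nrp1 (SD, n = 3).

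Between LAMP2A+DM-αKG and VT, 4 members that passed besides Plxnd1 and Epha7 were at least 1.5-fold higher in LAMP2A+DM-αKG, namely Sema3e, Efnb1, Ephb6 and Sema4g, and Sema4a was lower by as much. Passed or not, 83.3% of the 48 members differed by less than 1.5-fold, close to the 81.9% of all genes. Sema3c was 1.88-fold higher and did not pass (edgeR adjusted p = 0.069). The members that fell were Epha2, Epha4, Nrp2, Plxnc1 and Sema4a. Several calls near the threshold were lost without any 1 of several libraries and also with DESeq2. The 1.18-fold excess of Efnb2 (edgeR adjusted p = 0.046) gave an edgeR adjusted p of 0.144 and 0.112 without VT replicate 1 or 2, of 0.103, 0.0711 and 0.0683 without LAMP2A+DM-αKG replicate 1, 2 or 3, and an adjusted p of 0.0743 with DESeq2. That of Efnb3, 1.16-fold (edgeR adjusted p = 0.024), gave an edgeR adjusted p of 0.0861 without VT replicate 3, of 0.0643 and 0.0611 without LAMP2A+DM-αKG replicate 1 or 3, and an adjusted p of 0.0899 with DESeq2. Sema3f, 1.15-fold higher with 1 VT library inside the range of LAMP2A+DM-αKG (edgeR adjusted p = 0.042), gave an edgeR adjusted p of 0.219 and 0.0959 without VT replicate 2 or 3, of 0.122 and 0.0834 without LAMP2A+DM-αKG replicate 2 or 3, and an adjusted p of 0.0988 with DESeq2.

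The calls of Plxna1, Efna1 and Epha10 in LAMP2A+DM-αKG against VT were also lost without single libraries. Plxna1 gave an edgeR adjusted p of 0.114 without VT replicate 3 and of 0.0647 without LAMP2A+DM-αKG replicate 3, Efna1 of 0.0544 without VT replicate 2 and Epha10 of 0.0514 without VT replicate 3. Efna3, Plxnb1 and Sema3c, which had not passed, did so without 1 library. Sema3c gave an edgeR adjusted p of 0.0492 without VT replicate 3 and 0.0252 without LAMP2A+DM-αKG replicate 3, Efna3 of 0.0184 without VT replicate 3 and 0.0240 without LAMP2A+DM-αKG replicate 1, and Plxnb1 of 0.0105 without VT replicate 2.

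Other genes of these pathways, taken from lists chosen with earlier results of these data known, were read beside the members. Genes that passed the low-count filter only through the LAMP2A libraries were not taken out of the counts and medians of these lists. Of 28 tested genes for Eph and ephrin signalling, 23 rose and 5 fell in LAMP2A against VT, with a median log2 fold change of 0.65, and 4 rose and 20 fell in LAMP2A+DM-αKG against LAMP2A (median -0.41). Of this list 82.1% rose and 17.9% fell in LAMP2A against VT, where 43% of all genes rose and 42.1% fell. In LAMP2A+DM-αKG against LAMP2A 85.7% of the list passed, close to the 83.2% of all genes, with 14.3% higher and 71.4% lower against 41.1% and 42.1% of all genes. Grip1, a PDZ adaptor of ephrin-B proteins, averaged 3.89 ± 0.368 CPM in LAMP2A+DM-αKG, 32.2 ± 0.466 CPM in LAMP2A and 2.22 ± 0.162 CPM in VT (SD, n = 3 each here and for the genes that follow). Chn2, a chimaerin that switches off Rac, averaged 2.34 ± 0.369 CPM in LAMP2A+DM-αKG, 20.9 ± 1.19 CPM in LAMP2A and 2.09 ± 0.343 CPM in VT. In LAMP2A against VT Grip1 rose 14.5-fold and Chn2 9.94-fold, and Grb10, an adaptor of receptor tyrosine kinases, rose 7.64-fold to 1156 ± 6.16 CPM. Arhgef15 (ephexin-5), an exchange factor downstream of EphB2, fell 4.45-fold, with 12.5 ± 0.551 CPM in LAMP2A+DM-αKG, 3.14 ± 0.383 CPM in LAMP2A and 14.1 ± 0.412 CPM in VT.

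Of 29 tested genes for semaphorin and plexin signalling, 24 rose and 3 fell in LAMP2A against VT (median log2 fold change 0.84), and 5 rose and 20 fell in LAMP2A+DM-αKG against LAMP2A (median -0.84). That is 93.1% passed in LAMP2A against VT, where 85.1% of all genes did, and 86.2% in LAMP2A+DM-αKG against LAMP2A, where 83.2% did. Of the list 82.8% rose in LAMP2A against VT and 69.0% fell in LAMP2A+DM-αKG against LAMP2A, against 43% and 42.1% of all genes. Farp1, a FERM-domain exchange factor that works with A-type plexins, averaged 39.7 ± 0.830 CPM in LAMP2A+DM-αKG, 352 ± 1.47 CPM in LAMP2A and 21.6 ± 0.643 CPM in VT, a 16.3-fold rise in LAMP2A against VT. Dpysl2 (CRMP2), an effector of Sema3a in growth cones, rose 6.35-fold in LAMP2A. Met, the receptor of hepatocyte growth factor and a partner of B-type plexins, rose 5.69-fold and Mical2, an enzyme that oxidises actin, 5.37-fold. Met averaged 5.55 ± 0.787 CPM in LAMP2A+DM-αKG, 15.4 ± 0.759 CPM in LAMP2A and 2.71 ± 0.230 CPM in VT.

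The other guidance families, netrins, Slits, repulsive guidance molecules and their receptors, had 16 of 27 tested genes higher and 3 lower in LAMP2A against VT (median log2 fold change 0.74). In LAMP2A+DM-αKG against LAMP2A 7 rose and 15 fell (median -0.14). This list passed in 70.4% of its genes in LAMP2A against VT, below the 85.1% of all genes, with 59.3% higher against 43% of all, and in 81.5% in LAMP2A+DM-αKG against LAMP2A, below 83.2%. Unc5b, a netrin receptor, averaged 9.96 ± 0.778 CPM in LAMP2A+DM-αKG, 197 ± 4.48 CPM in LAMP2A and 10.1 ± 0.894 CPM in VT, a 19.6-fold rise in LAMP2A against VT. Robo2, a receptor of Slits, had 2 counts in the LAMP2A+DM-αKG libraries, 1025 in LAMP2A and 1 in VT. It reached the low-count filter only through the LAMP2A libraries and so had to be higher there. Slit3 rose 15.0-fold and Rgma, a ligand of neogenin, 14.3-fold in LAMP2A against VT.

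Markers of other cell types also moved between the groups. In LAMP2A against VT 43% of all genes rose and 42.1% fell. The 9 smooth muscle and mesoderm markers all rose in LAMP2A against VT, with a summed level of 8.70 to 10.3 CPM in LAMP2A+DM-αKG, 2170 to 2210 CPM in LAMP2A and 8.35 to 10.1 CPM in VT. Some of these markers, Hand2 among them, reached the low-count filter only through the LAMP2A libraries and so had to be higher there. Of 12 extraembryonic endoderm markers 11 rose and 1 fell, at 1528 to 1594 CPM in LAMP2A+DM-αKG, 4733 to 4790.1 CPM in LAMP2A and 994 to 1047 CPM in VT. Of 8 tested fibroblast and feeder markers 7 rose and 1 fell, at 2099 to 2183 CPM in LAMP2A+DM-αKG, 4069 to 4098 CPM in LAMP2A and 1419 to 1622 CPM in VT, with Lum at 0 in VT. Fn1 made up most of these sums, with means of 1708 CPM in LAMP2A+DM-αKG, 2944 CPM in LAMP2A and 1170 CPM in VT. Among the fibroblast and feeder markers Col1a2, Col3a1 and Dcn reached the low-count filter only through the LAMP2A libraries. Of 7 tested neural markers 3 rose and 4 fell, at 271 to 277 CPM in LAMP2A+DM-αKG, 401 to 409 CPM in LAMP2A and 298 to 299 CPM in VT, with Neurog1 at 0 in VT. Nes made up most of the LAMP2A sum, with means of 50.3 CPM in LAMP2A+DM-αKG, 265 CPM in LAMP2A and 47.4 CPM in VT. Endothelial markers summed to 83.6 to 86.2 CPM in LAMP2A+DM-αKG, 38.2 to 40.6 CPM in LAMP2A and 97.0 to 101 CPM in VT, with 2 of 7 tested higher and 4 lower in LAMP2A against VT and Emcn at 0 in LAMP2A+DM-αKG and VT. Immune markers summed to 15.6 to 16.3 CPM in LAMP2A+DM-αKG, 11.5 to 12.6 CPM in LAMP2A and 28.2 to 31.1 CPM in VT, with 1 of 3 tested higher and 2 lower, Ptprc at 0 in LAMP2A and Csf1r at 0 in VT. The part of other cell types in the levels of the guidance genes was not tested.

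The authors' deposited tables of their own comparisons list 49 of the 50 members. In the authors' deposited table of LAMP2A against VT, 35 members were called higher and 8 lower. In the authors' deposited table of LAMP2A+DM-αKG against LAMP2A, 11 were called higher and 34 lower. The share of all genes called in the authors' tables was not counted. In the edgeR fit 85.1% of all genes passed in LAMP2A against VT and 83.2% in LAMP2A+DM-αKG against LAMP2A.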

How the data were processed

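Counts from RNA-seq of 9 libraries in 3 groups of 3 were analysed. Per the labels' protocols, libraries were made with a stranded Illumina TruSeq mRNA kit. The table the authors deposited holds raw read counts, whole numbers by gene symbol for 24421 genes. The submitters' processing notes name STAR 2.7.1, HTSeq 0.11.2, DESeq2 and the build mm10. Which annotation and strand option were used is not given in the sources used, so values of genes that overlap others or have close copies are less sure. Per the file headers, the authors' 2 deposited comparison tables hold a mean signal over libraries, log2 fold changes, a standard error, a test score and p-values. Only calls and log2 fold changes were read from them.

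edgeR 4.0.16 in R 4.3.3 was used for the fit (filterByExpr, TMM, estimateDisp, glmQLFit with robust estimation, glmQLFTest), with all 9 libraries in 1 model of group means and 6 residual degrees of freedom. A total of 14513 genes were tested. Adjusted p-values are by Benjamini-Hochberg over all of them, with a threshold of 0.05. With a common biological coefficient of variation of 2.74%, small differences passed, so counts at 2-fold or more are given as well. The filter asked for at least 0.371 CPM in 3 libraries. CPM are scaled to the counts of the tested genes and TMM factors of 0.989 to 1.006. CPM per kb use the exon length of GENCODE M21 (GRCm38, the assembly of mm10). The SE of a log2 fold change is its size divided by the root of its F statistic. No libraries were merged, since those of a group differed by more than counting noise (chi-square over degrees of freedom 1.19 to 5.66). The fit was tested on simulated data.

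The members and the lists were chosen with earlier results of these data known. Values in every library are given for members chosen as follows, each with a mean of at least 5 CPM in a group of the comparison used. Up to 3 per class that passed were taken by fold change of LAMP2A against VT. The 6 that passed with the largest change of LAMP2A+DM-αKG against VT were added. Members that did not pass, or differed by under 1.5-fold, in LAMP2A against VT were taken as well. Such values are also given for Epha7, chosen after its values were seen. Up to 4 genes per pathway list were named by the same level and fold change. Levels of a few single marker genes are not reported here. Replicate numbers did not pair libraries. Alternatives were DESeq2 1.42.0, other scaling factors, no filter, a fit of 6 libraries, no robust estimation, a test against a 2-fold minimum, a replicate block and leaving out each library.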

Additional observations from a re-analysis of the deposited data

How the results depend on the processing

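Counts of members that rose or fell stayed within 1.5 times under every alternative but the test against a 2-fold minimum (glmTreat in edgeR). That test called 26 guidance genes in LAMP2A against VT (43 against no change), 24 in LAMP2A+DM-αKG against LAMP2A (46) and 0 in LAMP2A+DM-αKG against VT (29; 2 at an unadjusted p under 0.05). The 2 members at least 2-fold apart in LAMP2A+DM-αKG against VT also became 0. In the same order of comparisons, it called 9, 6 and 0 genes of the Eph and ephrin signalling list (28, 24 and 17 against no change), 13, 12 and 0 of the semaphorin and plexin list (27, 25 and 19) and 12, 10 and 1 of the netrin, Slit and RGM list (19, 22 and 13). For both counts of 0 on the lists, 0 genes had an unadjusted p under 0.05. DESeq2 against no change called 43, 45 and 26 guidance genes. Without each library in turn, guidance genes numbered 42 to 43, 44 to 46 and 26 to 29, and at 2-fold or more 28 in every case, 27 to 28, and 2 to 3. The lists gave 27 to 28, 23 to 24 and 15 to 17 genes (Eph and ephrin), 26 to 27, 24 to 25 and 18 to 21 (semaphorin and plexin), and 18 to 20, 21 to 22 and 12 to 14 (netrin, Slit and RGM). With a replicate block the guidance genes numbered 43, 46 and 29, and at 2-fold or more 28, 28 and 2. Same-numbered libraries did not deviate together (correlations of -0.027 to 0.012), and 2 of 9 correlated best with their own number.

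Of 3104 gene values, 27 changed sign, none of them past the threshold, and the cause was not tested. In LAMP2A against VT, log2 values without each library in turn ran from -0.055 to 0.067 for Plxna3, from -0.042 to 0.035 for Plxnb2 and from -0.25 to 0.10 for Epha10. Plxna3 also had 0.0082 with DESeq2, 0.011 with library totals and 0.00073 with 6 libraries, and Plxnb2 0.00065 with library totals. In LAMP2A+DM-αKG against VT they ran from -0.010 to 0.069 for Plxna2, -0.34 to 0.019 for Sema6a, -0.17 to 0.046 for Epha1, -0.56 to 0.18 for Epha8, -0.38 to 0.14 for Plxna4, -0.13 to 1.18 for Sema3a, -0.062 to 0.076 for Sema4f, -0.65 to 0.13 for Sema6d, -0.043 to 0.055 for Dpysl2 and -0.064 to 0.056 for Unc5b. Dpysl2 also had 0.012 with library totals and 0.0030 with 6 libraries, and Unc5b 0.0022 with library totals. Apart from the 2-fold minimum, 33 gene calls were lost and 6 gained, and those of members are given with their libraries above. Epha8, Ephb1, Sema3a, Sema3c, Sema3d and Sema6d had 7 to 29 counts over the LAMP2A+DM-αKG libraries and 8 to 27 over the VT libraries, which limits the precision of their folds.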
